A study of Mus musculus with 6 samples.

Results

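The late cornified envelope (Lce) genes described here are Lce1a1, Lce1b, Lce1d, Lce1g and Lce1m of the Lce1 group and Lce3a, Lce3b, Lce3c, Lce3e and Lce3f of the Lce3 group. They were taken by gene name from a single-color Agilent mouse array, and they are 10 of the 20 Lce genes and of the 34298 gene names on it. Epithelial organoids, three-dimensional cultures grown in Matrigel, were made from the esophagus and from the stomach corpus of mice 1, 2 and 4, which gave 3 arrays of esophageal and 3 of stomach organoids, numbered here by mouse. All 6 cultures were untreated controls at passage 0, harvested on day 8, or on day 7 for the stomach culture of mouse 4. The methods name wild-type C57BL/6 females and 3 CreERT2; Rosa26-tdTomato strains (Krt5, Krt8 and Axin2) and give an age range for the study's mice, but no source used here ties a strain or an age to these animals. Both media held EGF, noggin, FGF-10, N-acetyl-cysteine, nicotinamide, an inhibitor of the TGF-β receptor kinase and a ROCK inhibitor. Stomach organoids also received WNT3A, R-spondin1 and gastrin, and esophageal organoids received forskolin, so effects of tissue and of medium cannot be told apart.

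Lce genes lie side by side in the epidermal differentiation complex, a stretch of chromosome 3 that also holds loricrin, involucrin and the small proline-rich (Sprr) genes. They encode small proteins that transglutaminases cross-link into the cornified envelope, the protein shell that replaces the plasma membrane of a keratinocyte late in its differentiation. In skin the Lce1 group is known from normal epidermis, and the Lce3 group is better known from oral epithelium and from skin after injury of its barrier.

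The arrays were read as normalized log2 signal per probe, averaged over the spots of a probe, and 45.5% to 51.1% of the non-control spots were well above background. Each of the 10 genes was measured by 1 probe, and every member had a value on all 6 arrays. The tissue labels fit their defining markers: Krt5, a keratin of squamous basal cells, was 17.07, 17.08 and 17.08 in esophageal replicates 1, 2 and 4 and 4.85, 5.19 and 5.39 in the stomach replicates. Krt8, a keratin of columnar epithelium, was 5.50, 5.83 and 5.21 in the esophagus and 16.71, 16.65 and 16.88 in the stomach. Esophageal replicates 1 and 2 shared a slide and a scan with the 3 stomach arrays, whereas esophageal replicate 4 lay alone on the other slide, so its culture and its slide cannot be told apart. The calls, differences, fold bounds and spreads of the 10 genes are given with and without it.

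All 10 Lce genes were higher on every esophageal array than on every stomach array, and none was well above background on any stomach array. Over all gene names with 6 values, the 3 esophageal values lay above the 3 stomach values in 16.9%. By limma over all probes with Benjamini-Hochberg adjustment, 7 of the 10 genes were called higher in esophageal organoids at an adjusted p under 0.05, among them all 5 Lce3 genes and 2 of the 5 Lce1 genes. Of all gene names, 7.15% were called higher in the esophagus, 7.7% higher in the stomach and 14.9% in either direction. The median log2 difference, esophagus minus stomach, was 7.01 over the 10 genes and 0.03 over all gene names. By the detection flag, 9 of the 10 genes were well above background on all 3 esophageal arrays and on no stomach array, a pattern that 1.26% of all gene names had. These are bulk cultures, in which fewer cells of a type and less RNA per cell cannot be told apart.

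The 5 Lce3 genes were well above background on every esophageal array and on no stomach array. Lce3a was 16.36, 16.53 and 10.81 in esophageal replicates 1, 2 and 4 and 4.69, 5.03 and 4.70 in stomach replicates 1, 2 and 4. Lce3b was 16.70, 17.35 and 10.46 in the esophagus and 4.91, 4.75 and 4.83 in the stomach. In both genes replicates 1 and 2 lay close together and replicate 4 lay far below them, still clear of the stomach. Lce3c was 16.23, 17.16 and 10.17 in the esophagus and 4.69, 4.40 and 4.98 in the stomach. Lce3e was 14.99, 16.26 and 9.44 in the esophagus and 4.75, 4.56 and 5.04 in the stomach. Lce3f was 14.26, 15.17 and 8.39 in the esophagus and 4.71, 4.92 and 5.04 in the stomach. All 5 genes had replicate 2 highest and replicate 4 lowest, and no esophageal value overlapped a stomach value.

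The log2 difference of Lce3a was 9.76 (standard error 1.37, limma adjusted p = 0.00273), and that of Lce3b was 10.0045 (standard error 1.59, limma adjusted p = 0.00518). For Lce3c it was 9.83 (standard error 1.59, limma adjusted p = 0.00568). For Lce3e the difference was 8.78 (standard error 1.52, limma adjusted p = 0.00776) and for Lce3f it was 7.71 (standard error 1.54, limma adjusted p = 0.0153). Because the stomach signal was not well above background, each fold is a lower bound, which sets the esophageal mean against the higher of the gene's own stomach signal and the lowest signal well above background on that array. On that scale Lce3b was at least 980-fold, Lce3a at least 865-fold, Lce3c at least 800-fold, Lce3e at least 402-fold and Lce3f at least 208-fold higher in esophageal organoids. These bounds rest on which esophageal arrays enter: over the 5 genes they ran from 85.6-fold (Lce3f) to 438-fold (Lce3a) without replicate 2, from 117-fold to 514-fold without replicate 1, and from 898-fold (Lce3f) to 4471-fold (Lce3b) without replicate 4. The limma differences without replicate 4 were 9.82 to 12.19. Lce3a passed the threshold in each of the alternative settings tried. Lce3f lost it without stomach replicate 1 (limma adjusted p = 0.0692), without stomach replicate 2 (limma adjusted p = 0.0668) and with mean in place of median intensities and a normexp offset of 50 (limma adjusted p = 0.0715). With a trend and robust variances in limma, Lce3b, Lce3c, Lce3e and Lce3f lost it (limma adjusted p = 0.0598, 0.0629, 0.0739 and 0.105).

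Some Lce3 probes read nearly the same sequence, so their values may share signal. The 60-base probes of Lce3b and Lce3c match at 54 of 60 positions, with an identical run of 28 bases, and each overlaps the probe of Lce3d, another Lce3 gene on the array, by 41 bases. A stretch of 30 bases from each of these probes is shown, in the register in which they overlap, because it shows how alike the probes are there. Capitals mark the 4 positions at which the 3 stretches differ, and the probes also differ outside the stretch.
Lce3b: tcttgttttGtctgatcctggaCaCCcttc
Lce3c: tcttgttttAtctgatcctggaGaGTcttc
Lce3d: tcttgttttGtctgatcctggaGaACcttc
Among the 45 pairs of member probes, Lce3b with Lce3c was the 1 pair with an identical run of 15 or more bases, and the other pairs shared at most 10. Members also resemble probes of Lce1i, another Lce1 gene on the array. The Lce1g probe shares an identical run of 17 bases with a probe of Lce1i, and the Lce1d probe matches a probe of Lce1i at 46 of 60 positions. How far one transcript hybridizes to the probe of another was not tested.

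**Figure D1:**
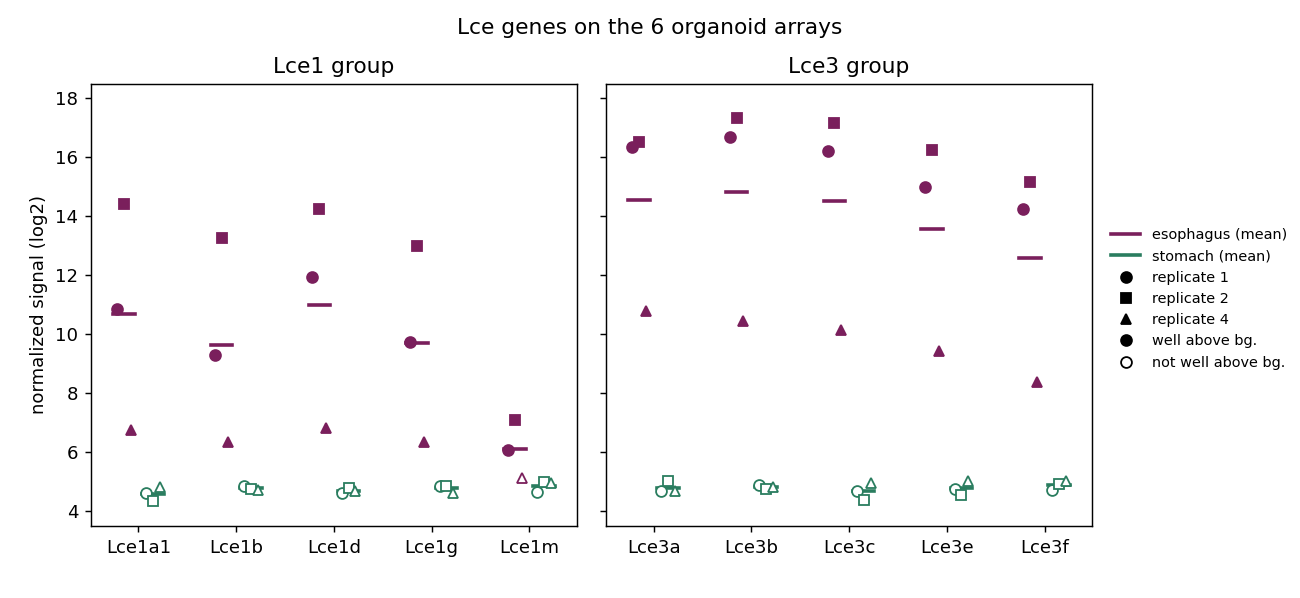
Normalized log2 signal of the 10 Lce genes on the 3 esophageal and 3 stomach arrays, with 1 symbol per mouse and a bar at each tissue mean; filled symbols were well above background and open symbols were not. Stomach values lie between 4.36 and 5.04 and are all open, Lce3 values of esophageal replicates 1 and 2 lie between 14.26 and 17.35, and Lce1 values step down from replicate 2 to replicate 1 to replicate 4.

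The Lce1 genes were detected in esophageal organoids too, 4 of the 5 on every array. Lce1d was 11.95, 14.25 and 6.82 in esophageal replicates 1, 2 and 4 and 4.63, 4.79 and 4.70 in stomach replicates 1, 2 and 4. Lce1a1 was 10.87, 14.41 and 6.76 in the esophagus and 4.63, 4.36 and 4.83 in the stomach. In both genes replicate 2 was far above replicate 1, and replicate 4 was nearest to the stomach. As lower bounds, it lay at least 2.10 log2 units above the stomach array of the same mouse in Lce1d and 1.93 in Lce1a1. Lce1g was 9.73, 12.98 and 6.37 in the esophagus and 4.85, 4.85 and 4.64 in the stomach. Lce1b, the mean of 10 spots, was 9.31, 13.25 and 6.36 in the esophagus and 4.87, 4.78 and 4.73 in the stomach. Lce1m was 6.09, 7.09 and 5.13 in the esophagus, where replicate 4 was not well above background, and 4.65, 4.99 and 4.95 in the stomach. Its lowest esophageal value exceeded its highest stomach value by 0.14 log2 units, but neither was well above background, so the size of this gap is not read.

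The log2 difference of Lce1d was 6.30 (standard error 1.59, limma adjusted p = 0.0404) and that of Lce1a1 was 6.07 (standard error 1.60, limma adjusted p = 0.0481), both just past the threshold. Lce1g at 4.91 (standard error 1.38, limma adjusted p = 0.0611), Lce1b at 4.85 (standard error 1.45, limma adjusted p = 0.0748) and Lce1m at 1.24 (standard error 0.44, limma adjusted p = 0.125) did not pass it. With the mouse as a replicate block, Lce1g passed as well (limma adjusted p = 0.0437), which made 8 of 10 called. As lower bounds, Lce1d was at least 75.5-fold, Lce1a1 at least 58.8-fold, Lce1g at least 28.9-fold and Lce1b at least 27.7-fold higher in the esophagus. Without replicate 2 these bounds fell to 24.5-fold for Lce1d, 16.1-fold for Lce1a1, 9.23-fold for Lce1g and 7.9-fold for Lce1b. Without replicate 4 they rose to 322-fold, 229-fold, 91.3-fold and 86.3-fold in the same order. Lce1m was not well above background in replicate 4, so its fold of 2.36, or 1.68 without replicate 2, is not a lower bound. With replicate 4 left out, Lce1m was at least 3.3-fold higher. Without esophageal replicate 4 the limma differences of the Lce1 genes were 1.72 to 8.40, and all 10 genes of both groups passed. The same 10 passed with the slide as a block, which leaves only the arrays of the shared slide to compare the tissues. Without stomach replicate 1 or stomach replicate 2 the count was 4 of 10, all of them Lce3 genes. Without esophageal replicate 1, esophageal replicate 2 or stomach replicate 4 it was 5, the 5 Lce3 genes, and with a trend and robust variances in limma it was 1, Lce3a.

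The fitted differences were 7.71 to 10.0045 over the 5 Lce3 genes, with a median of 9.76, and 1.24 to 6.30 over the 5 Lce1 genes, with a median of 4.91. With each gene at its lower bound, but Lce1m at its fitted difference, the medians were 9.64 and 4.85. As every stomach value lay below detection, these values give how far each probe's esophageal signal stood above the floor, and no order of the groups in their tissue difference is read from them. Mouse by mouse, the lower bound of the log2 difference, set as for the folds, had a median over the Lce3 genes of 11.54 in mouse 1, 11.51 in mouse 2 and 5.18 in mouse 4. For the Lce1 genes the medians were 4.88 in mouse 1, 8.30 in mouse 2 and 1.65 in mouse 4, where the value of Lce1m is not a bound.

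In the cluster the groups occupy different stretches. In the mm9 coordinates of the array, the probe of Lce1a1 starts at position 92450489 of chromosome 3, and those of Lce1b, Lce1d and Lce1g follow 9.09, 39 and 104 kb further on. The Lce3 probes lie together between 279 kb (Lce3a) and 347 kb (Lce3f) from the Lce1a1 probe. Lce1m lies apart from its group at 371 kb, beyond the last Lce3 gene. Genes on both strands belong to the Lce3 stretch: Lce3b, Lce3c, Lce3e and Lce3f are on the plus strand, and Lce3a, like the 5 Lce1 genes, is on the minus strand.

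**Figure D2:**
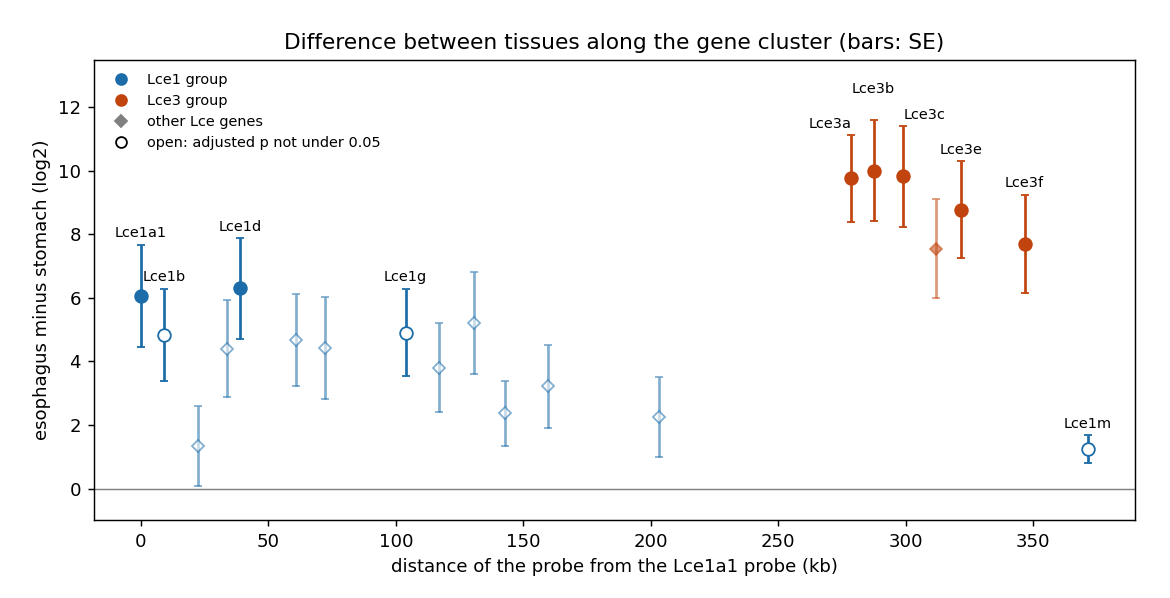
Log2 difference, esophagus minus stomach, of each Lce gene with its standard error against the distance of its probe from the Lce1a1 probe in kb; circles are the 10 genes described here, diamonds are the 10 other Lce genes, and filled symbols passed an adjusted p under 0.05. The Lce3 genes between 279 and 347 kb lie at 7.54 to 10.0045, and Lce1m at 371 kb lies at 1.24.

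With replicate 4 included, the esophageal arrays differed from each other far more in these genes than in most others. In all 10 genes the order was replicate 2 over replicate 1 over replicate 4, an order that 12.3% of the gene names well above background on all 3 esophageal arrays had. Replicate 4 was the lowest of the 3 in 29.8% of these gene names, and in 39.7% of those that were also called higher in the esophagus. The SD over the esophageal arrays was 3.26 to 3.83 log2 units in 9 of the genes and 0.98 in Lce1m, against a median of 0.29 over the detected gene names. Between 99.8% and 100% of these gene names had a smaller SD than each of the 9 genes, and 95.5% had a smaller SD than Lce1m. Over replicates 1 and 2 alone the SD was 0.12 to 0.90 in the Lce3 genes and 0.71 to 2.79 in the Lce1 genes, against a median of 0.225 over the detected gene names. On those arrays 28.7% (Lce3a) to 95.3% (Lce3e) of these gene names had a smaller SD than the Lce3 genes and 91.4% (Lce1m) to 99.9% (Lce1b) a smaller SD than the Lce1 genes. In the stomach, where none of the genes was well above background, their SD was at most 0.29.

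The steps between esophageal arrays are limited by the top of the normalized scale, 17.88 on each of them. Lce3a, Lce3b, Lce3c and Lce3d lay 1.18 to 1.89 below it in replicate 1 and could not rise further than that, whereas Lce3e and Lce3f had room for 2.89 and 3.62, and the Lce1 genes for at least 5.93 among the members. The steps of the groups are therefore values side by side and not a comparison. From replicate 1 to replicate 2, the median step in log2 signal was 0.91 over the Lce3 genes and 3.25 over the Lce1 genes. It was 0.17 in Lce3a and 1.28 in Lce3e, the extremes of that group. In Lce1b the step was 3.95, in Lce1a1 3.53, in Lce1g 3.25, in Lce1d 2.31 and in Lce1m 1.0. A step of at least 2 log2 units from replicate 1 to replicate 2 occurred in 0.663% of the gene names well above background on all 3 esophageal arrays. These were 110 genes, and 10 of them were Lce1 genes, including the 4 Lce1 members well above background on all 3 arrays. Lce1m, which was not, is outside this count. Of the Lce3 genes only Lce3e and Lce3f had room for such a step, and theirs were 1.28 and 0.91. From replicate 4 to replicate 1 the median step was 5.87 over the Lce3 genes and 3.36 over the Lce1 genes. This step is limited by the floor, as the lowest signal well above background in replicate 4 was 4.75. In replicate 1 the Lce1 members stood at 6.09 to 11.95 and the Lce3 members at 14.26 to 16.70, so these medians are no comparison of the groups either. A step of at least 2 from replicate 4 to replicate 1 occurred in 2.21% of the gene names well above background on all 3 esophageal arrays. These were 367 in all, of which 14 were Lce genes and 9 were members. Lce1m, not well above background in replicate 4, was again outside the count.

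Other genes also stepped between replicates 1 and 2. Among genes outside the family with the largest step from replicate 1 to replicate 2, looked up after the Lce1 values had been seen, were the immediate-early genes Fosb, Egr2 and Fos, transcription factors known for a fast and brief response to growth signals. Fosb was 7.06, 15.66 and 6.90 in esophageal replicates 1, 2 and 4, Egr2 was 6.30, 12.75 and 6.11, and Fos was 9.41, 14.59 and 9.21. Among the esophageal arrays each was high in replicate 2 alone, whereas the Lce1 genes also separated replicate 1 from replicate 4. The stomach means were 5.65 for Fosb, 5.61 for Egr2 and 10.74 for Fos. That of Fos, well above background on all 3 stomach arrays, lay above its esophageal replicates 1 and 4. The squamous markers stepped in both directions, and Krt5, Krt13 and Krt14, at 17.07, 16.60 and 16.31 in replicate 1, lay near the top of the scale, which limits their steps upward. Over Krt5, Krt14, Krt15, Krt13, Krt4, Col17a1, Dsg3 and Lgals7 the median step was 0.22 from replicate 1 to replicate 2 and 0.02 from replicate 4 to replicate 1, and all 8 were called higher in the esophagus. Dsg3, a desmosomal cadherin, had steps of -1.55 and 2.51, Krt4 a step of 1.12 from replicate 1 to replicate 2, and Krt15 steps of -0.94 and -0.74. The part of the immediate-early genes in the Lce1 steps was not tested.

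**Figure D3:**
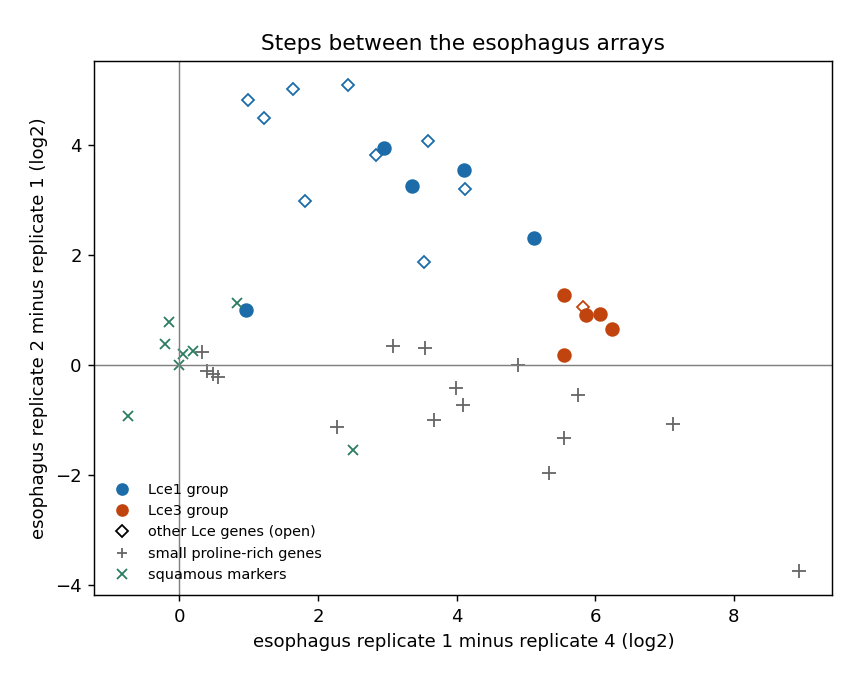
Step from esophageal replicate 1 to replicate 2 against the step from replicate 4 to replicate 1, both in log2 units, for the Lce1 and Lce3 genes, the other Lce genes, the small proline-rich genes and the squamous markers, with 1 symbol per gene. Apart from Lce1m at 0.96 and 1.0, the Lce1 genes lie at 2.31 to 3.95 on the vertical axis, the Lce3 genes, of which Lce3a, Lce3b and Lce3c had room for 1.18 to 1.64 below the top of the scale, at 0.17 to 1.28, and the squamous markers have medians of 0.02 and 0.22.

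The sequence just before the start site gives another view of the family. RefSeq start sites (assembly GRCm38.p6) were found for all 10 genes. The run ATAAAA on the strand of the gene, starting 20 to 40 bases before the start site, was present in 8 of the 10 genes and in 1.74% of 32851 RefSeq start sites. Anywhere in the 300 bases from 250 before to 50 after the start, on the strand of the gene, it was present in 9 of the 10 genes and in 11.1% of all. Related genes share much of this stretch, so the members are not independent cases, and these shares are a description with no test. The 60 bases before the start of 3 Lce1 and 3 Lce3 genes are shown, because they are alike within their group and hold this run, in capitals, at about the same place; Lce1m and Lce3a follow, since they are not like the rest of their groups.
Lce1b: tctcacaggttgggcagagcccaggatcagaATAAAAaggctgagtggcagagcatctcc
Lce1d: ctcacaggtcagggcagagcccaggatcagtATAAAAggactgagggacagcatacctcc
Lce1g: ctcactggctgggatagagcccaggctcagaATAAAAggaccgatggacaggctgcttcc
Lce3c: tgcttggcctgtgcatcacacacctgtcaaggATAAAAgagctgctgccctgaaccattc
Lce3e: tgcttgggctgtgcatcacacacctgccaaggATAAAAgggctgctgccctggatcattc
Lce3f: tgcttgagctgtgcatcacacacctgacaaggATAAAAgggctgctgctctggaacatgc
Lce1m: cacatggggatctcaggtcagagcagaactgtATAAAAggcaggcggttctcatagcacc
Lce3a: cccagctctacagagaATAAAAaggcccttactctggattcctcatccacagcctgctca
These stretches are, in the same order, chr3:92656927-92656986, chr3:92687211-92687270 and chr3:92752339-92752398 on the minus strand, chr3:92944426-92944485, chr3:92967001-92967060 and chr3:92992157-92992216 on the plus strand, and chr3:93019062-93019121 and chr3:92926231-92926290 on the minus strand.

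The run starts 28 or 29 bases before the start in the 8 genes and 44 bases before it in Lce3a, and in Lce1a1 these letters are not in the window. Aligned without gaps, the 60 bases of Lce3c and Lce3e match at 55 positions, as do those of Lce3e and Lce3f, and the closest Lce1 pair, Lce1a1 and Lce1d, matches at 50. Lce1m matched the other Lce1 genes at 21 to 24 positions and Lce3a the other Lce3 genes at 23 to 27. Lce1m matched Lce3c, Lce3e and Lce3f at 26, 27 and 29 positions, more than any gene of its own group. Over all pairs the median number of matches was 38.5 within the Lce1 group, 31.5 within the Lce3 group and 25 between the groups, where the closest pairs were Lce1m with Lce3f and Lce1g with Lce3e, both at 29. The exact letters TATAAA, on either strand, were in the 300-base window of Lce1d, Lce1m and Lce3e and in 13.6% of all windows, and in Lce1d and Lce1m they overlap the ATAAAA run. The letters TGANTCA, read on both strands, were in none of the 10 windows and in 7.81% of all. Of the other letters searched on both strands, CCATGTG was in 3 of the 10 windows and in 4.42% of all, TGACNNNGC in 3 and in 12.4%, CACCC in 3 and in 57.5%, and AACCGGTT in none and in 0.146%. Such matches describe the letters in these windows and say nothing about which factors bind there.

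Among the other Lce genes on the array, Lce3d, whose probe overlaps those of Lce3b and Lce3c, was the 1 gene that passed. It was 15.99, 17.05 and 10.16 in the esophagus and 6.62, 6.65 and 7.30 in the stomach, where all 3 arrays were well above background, and its log2 difference was 7.54 (limma adjusted p = 0.0177). Lce1c, Lce1e, Lce1f and Lce1i had differences of 4.41 to 5.22 (limma adjusted p = 0.0819 to 0.136), with no stomach array well above background, which as lower bounds is 20.9-fold to 33.9-fold. Lce1h, Lce1k and Lce1l had differences of 3.80, 3.22 and 2.24 (limma adjusted p = 0.142, 0.181 and 0.349), again with no stomach array well above background. For Lce1k this is at least 9.11-fold as a lower bound. Lce1h and Lce1l were not well above background in esophageal replicate 4, so no lower bound is given for them. Lce1j, which was well above background on all 3 stomach arrays, had a difference of 2.36 (limma adjusted p = 0.21). Lce1a2, like Lce3d and Lce1j, was well above background on all 3 stomach arrays, with 10.43, 9.68 and 12.03 there against 12.60, 14.47 and 9.07 in the esophagus. Its values overlapped between the tissues, and its difference of 1.34 did not pass (limma adjusted p = 0.607). Second probes of Lce1a2, Lce1c and Lce1i gave differences of 3.18, 5.02 and 3.70, none of which passed. With 2310050C09Rik, a gene that lies between the Lce1 and Lce3 stretches (difference 0.70, limma adjusted p = 0.47), 1 of these 11 genes passed and 8 did not overlap between the tissues. Without stomach replicate 1 or stomach replicate 2 none passed, without esophageal replicate 2 there were 2, and without esophageal replicate 4 there were 7. All 11 had the same order of the esophageal replicates as the members.

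Of the other envelope genes of the epidermal differentiation complex, some passed and some did not. Of 9 genes for loricrin, involucrin and the fused S100 proteins, 3 rose in the esophagus and none fell. Loricrin (Lor), the main protein of the epidermal envelope, was 14.44, 16.94 and 10.38 in the esophagus and 7.07, 6.58 and 7.16 in the stomach, a difference of 6.98 (limma adjusted p = 0.0152), with the order of replicates of the Lce genes, which 2 of the 9 had. The other genes of that list that rose, Tchh and Crnn, had replicate 1 highest. Involucrin (Ivl), an early scaffold protein of the envelope, was 8.07, 6.90 and 7.91 in the esophagus and 7.17, 7.51 and 8.06 in the stomach, so that the tissues overlapped, with a difference of 0.05 (limma adjusted p = 0.96). Of 16 small proline-rich genes, which encode bridging proteins of the envelope, 9 rose and 1 fell, with a median difference of 7.16. The median was 6.98 with 9 of them, not well above background in 1 tissue, set against the detection floor there as for the folds. Sprr2f, well above background on 1 stomach array, had the largest fitted difference of that list, 10.84 (limma adjusted p = 0.000201), which sets no order against the genes with only a lower bound. Sprr2b, detected on all 6 arrays, had the smallest among those well above background in the esophagus, -1.42 (limma adjusted p = 0.176). The gene that fell, Sprr2a1, was not well above background in the esophagus. Its difference was -1.62 (limma adjusted p = 0.000596), at least 2.38-fold lower as a bound. The probes of Sprr2a3 disagree: the brightest gave -0.56 (limma adjusted p = 0.0909) and the other fell by -1.72 (limma adjusted p = 0.0422). Replicate 4 was the lowest esophageal array in all 16 of them, but only 3 had the full order of the Lce genes, and their median step from replicate 1 to replicate 2 was -0.49. Of 6 other small genes of the complex 1 rose, Crct1, at 9.93 (limma adjusted p = 8.89e-05), and Lelp1 had the smallest difference of those well above background on at least 2 esophageal arrays, 1.01 (limma adjusted p = 0.238). Without stomach replicate 1 or stomach replicate 2 no gene of the loricrin list passed, and of the 6 other small genes 2 passed without esophageal replicate 1 and 5 without esophageal replicate 4.

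Most genes of a chosen list of cross-linking enzymes, scaffold proteins and secreted keratinocyte proteins passed the test. Of these 9 genes, 8 rose and none fell, with a median difference of 4.98. Enrichment of the list was not tested. Krtdap, a secreted protein of differentiating keratinocytes, had the largest fitted difference, 12.05 (limma adjusted p = 3.23e-08), with no stomach array well above background and so at least 4000-fold as a lower bound, and Tgm3, a transglutaminase, the smallest at its brightest probe, -0.09 (limma adjusted p = 0.901). The other Tgm3 probe was 10.96, 12.02 and 8.43 in the esophagus, had no stomach array well above background, and rose by 5.68 (limma adjusted p = 0.0025), at least 48.6-fold as a lower bound, so the probes of Tgm3 disagree. Of 14 late differentiation keratins, proteases and adhesion genes, 7 rose and 1 fell. Among those well above background on at least 2 esophageal arrays, differences ran from Krt13 at 11 (limma adjusted p = 5.43e-07) to Dsc1 at 1.54 (limma adjusted p = 0.256). Dsc1 was not well above background in the stomach or in esophageal replicate 4, so no lower bound is given for it. Krt1, the gene that fell, had a difference of -0.92 (limma adjusted p = 0.0421). It was not well above background in the esophagus and was at least 1.72-fold lower there. Of 14 transcription factors of keratinocyte differentiation, 7 rose and 1 fell, each read at its brightest probe. The gene counted as lower is Trp63, the factor of squamous basal cells, whose 4 probes disagree: the brightest gave -1.22 (limma adjusted p = 0.0249), whereas the other three rose by 8.55, 6.61 and 6.06 (limma adjusted p = 6.99e-07, 4.12e-07 and 9.4e-07), with no stomach array well above background, and as lower bounds by at least 299-fold, 92-fold and 49.6-fold. Maf, with 5.35 (limma adjusted p = 4.58e-06), had the largest fitted difference at the brightest probes, below those of the other three Trp63 probes, and was at least 38-fold higher as a lower bound. Of the late genes, 4 passed without any 1 of esophageal replicates 1 and 2 or stomach replicates 1 and 2. The order of replicates 2, 1 and 4 of the Lce genes was also that of 8 of the 14 factors and 7 of the 14 late genes.

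**Figure D4:**
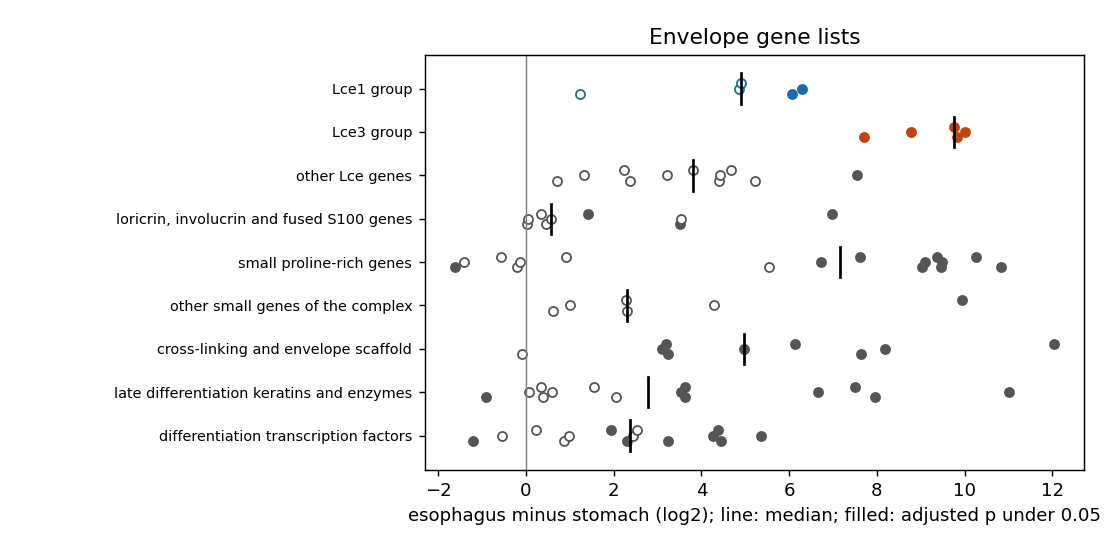
Log2 difference, esophagus minus stomach, of every gene of the Lce groups and of 7 further lists of envelope and differentiation genes, with a line at each median; filled symbols passed an adjusted p under 0.05. The medians are 4.91 for the Lce1 group, 9.76 for the Lce3 group, 7.16 for the small proline-rich genes and 0.57 for loricrin, involucrin and the fused S100 genes.

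Markers of other cell types were read on the same arrays. All 11 columnar markers, such as gastrokines and trefoil factors, fell in the esophagus, with a median difference of -9.05, or -8.94 with 6 of them at their lower bounds. None of 7 fibroblast, 6 immune and 4 endothelial markers passed in either direction. Each fibroblast marker was well above background on at most 2 arrays per tissue, and Lum, Pdgfra and Pdgfrb on none. Of the immune markers, Cd3e, Csf1r and Cd68 were well above background on all 6 arrays at their brightest probe and Ptprc and Adgre1 on none. Of the endothelial markers, Pecam1 and Kdr were well above background on all 6 arrays at their brightest probe and Cdh5 on none. The probes of Kdr and Csf1r disagree: the other Kdr probe and 1 of the 3 Csf1r probes were well above background on no array. The part of such cells in the results was not tested. Of 6 hair and nail keratinocyte markers 1 rose and 1 fell, each read at its brightest probe. The gene that fell, Krt85, has probes that disagree, at -1.87, 0.46 and -0.99 (limma adjusted p = 0.000778, 0.426 and 0.0853).

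The genes most like the members were sought by Pearson's r between each gene and the mean of the centred members over the 6 arrays, among 3173 genes outside the family that were well above background on at least 2 esophageal arrays and spanned at least 2 log2 units over the 6 arrays. Loricrin had r = 0.998, Ccl2, a chemokine, 0.997, the protease Asprv1 0.997 and the kallikrein Klk7 0.995; Sik1, a kinase, also had 0.998. Ifi203, Rnase2a and AI464196 followed, and 2 of the 10 most similar were noncoding interval probes. Ccl2 was 11.38, 12.38 and 8.02 in the esophagus and 4.80, 4.77 and 4.81 in the stomach, where it was not well above background. Asprv1 was 14.43, 15.38 and 8.40 in the esophagus and 5.10, 5.05 and 5.53 in the stomach. With 6 arrays in 2 tissues all genes share the same few samples, and the coefficient is a description with no test.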

How the data were processed

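RNA of 6 organoid cultures was labeled with Cy3 and hybridized to single-color Agilent arrays, which the authors scanned and quantified (Feature Extraction 11.5.1.1). Each spot has a deposited intensity and a flag for signal well above background, and a probe was counted as well above background when most of its spots were. The main values are the authors' deposited log2 values, which they had background corrected and quantile normalized. Median intensities after normexp (offset 15) and quantile normalization came within a median of 0.00507 and at most 0.243 of them.

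In R 4.3.3 with limma 3.58.1, log2 values of 55681 probes were averaged over spots, fitted over 6 arrays without a block and adjusted by Benjamini-Hochberg over all probes. On simulated data for 55641 probes, the fit called 94% to 96% of probes changed by 3 log2 units and 52% to 64% of those changed by 1.5. These shares were not read at the spread of the members, whose esophageal SD reached 3.83, against a median of 0.29 over detected gene names. They do not give the power for these genes. A gene is read at its probe with the highest mean. Precision is limited by 3 arrays per tissue, at which exact permutation of the labels reaches no p under 0.1 for one gene. The labels give same-numbered cultures the same mouse number, and deviations of such pairs correlated with r = 0.025, 0.0119 and -0.00787, against -0.0726 to 0.0405 for unlike numbers.

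The members, the gene lists and the rule for named genes were chosen with earlier results of these data known. Named are the members, the other Lce genes, the 10 most similar genes, and Krt5 and Krt8. From each envelope list come the largest and smallest difference among genes well above background on at least 2 esophageal arrays. Outside this rule, genes of the cell type marker lists and probes that disagreed are named too. Fosb, Egr2, Fos, Dsg3, Krt4, Krt15, Tchh, Crnn, Krt78, Rptn, Kprp, Serpinb3a, Krt1 and Sprr2a1 were picked after their values were seen. Start-site sequences are from RefSeq (GRCm38.p6). The fold bounds with 1 array left out and the spread without replicate 4 were added after the data had been seen. Other alternatives are given at the end.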

Additional observations from a re-analysis of the deposited data

How the results depend on the processing

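The 10 genes were higher in the esophagus under every alternative in which they were fitted, and the count of 7 called ran from 1 to 10. It was 1 with a trend and robust variances together, 6 with mean in place of median intensities and a normexp offset of 16, 4 with mean intensities and an offset of 50, and 4 to 10 with 1 array left out. With the mouse as a replicate block it was 8, with Lce1g added, and with the slide as a block 10. The median differences ran from 3.27 to 7.63 (Lce1) and from 8.51 to 12.80 (Lce3) over all settings. Over all gene names, the 5094 calls became 3140 to 5594 with 1 array left out. Of the 11 other Lce genes, limma called 1, against 0 with trend and robust variances or mean intensities with an offset of 50, 3 with the filter on dim probes, 7 with the processed signal or the slide as a block, 8 at an unadjusted p under 0.05 with a 1.5-fold change, and 0 to 7 with 1 array left out. The loricrin list had 3 calls, against 1 with trend and robust variances, 5 with the processed signal, 0 with mean intensities with an offset of 50, 4 at the unadjusted p and 0 to 4 with 1 array left out. The other small genes had 1 call, against 3 with the filter or the processed signal, 2 with the replicate block, 5 with the slide as a block or the unadjusted p, and 1 to 5 with 1 array left out. The late keratins and enzymes had 7, against 4 with trend and robust variances or mean intensities with an offset of 50 and 4 to 7 with 1 array left out, and the transcription factors 7, against 11 at the unadjusted p. Lce1m could not be tested under the filter on dim probes, which removes it. The causes were not tested. Low signal limits the stomach side of all 10 genes, which is a bound. For Lce1m it also limits esophageal replicate 4, so its fold with that array included is not a lower bound.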

Other observations

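A few keratinocyte genes outside the Lce family had their highest esophageal value in replicate 2. They were picked after their values had been seen. Krt78, a keratin of the upper layers of stratified epithelium, was 6.81, 11.96 and 5.67 in esophageal replicates 1, 2 and 4 and 6.02, 5.74 and 6.54 in stomach replicates 1, 2 and 4 at its brightest probe. There replicate 2 alone stood above the other arrays by more than 5 log2 units, and replicate 4 lay close to the lowest stomach value. At the other Krt78 probe replicate 4 was 5.67, not well above background, against 6.02, 5.41 and 6.09 in the stomach. Rptn, a fused S100 protein of the envelope, was 8.44, 11.32 and 5.75 in the esophagus and 4.99, 4.71 and 5.17 in the stomach. Kprp, a proline-rich protein of the same gene complex, was 8.74, 12.21 and 6.29 in the esophagus and 5.07, 4.64 and 4.70 in the stomach. None of these passed the threshold in limma (adjusted p = 0.458 for Krt78, 0.104 for Rptn and 0.0697 for Kprp). Serpinb3a, a serine protease inhibitor of squamous epithelium that was called higher in the esophagus, also had replicate 2 highest, at 12.68, but replicate 4, at 10.03, lay above replicate 1, at 7.94.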
